A study of Mus musculus with 32 samples.

Results

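The first hour of the response to LPS in dendritic cells that lack 2 subunits of the immunoproteasome was followed by RNA sequencing. The comparison takes 8 of the 32 libraries of the series: 4 labelled dKO 1h LPS and 4 labelled dKO no LPS. All 8 came from bone marrow-derived dendritic cells of C57BL/6 mice with the genotype Lmp7-/-Mecl1-/- (double knockout, dKO), which lack Lmp7 (gene Psmb8) and Mecl1 (gene Psmb10). Marrow from femur and tibia was cultured with GM-CSF and harvested on day 9, and the cells of the 1h LPS libraries then received LPS at 1 µg/mL for 1 h. WT libraries of the same times (4 labelled WT 1h LPS and 4 labelled WT no LPS) came from cultures made the same way. They serve to set the dKO response beside that of WT cells. Together with the WT libraries at 2 and 6 h of LPS (1 µg/mL), they also serve to check each dKO library against its label. The dKO libraries at 2 and 6 h of LPS are used to describe later levels. They also enter the check of how close libraries of the same group lie, and alternative fits that take the spread of the series. The labels name neither the mice nor the culture batches behind the replicates, so a p-value speaks only of the spread among these libraries, part or all of which may be technical. Of 22216 genes in the tables, 10102 passed a filter on RPKM (reads scaled to gene length and to library size), with 1 or more in 4 or more of the 8 libraries, and were tested.

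LPS, a glycolipid of the outer membrane of Gram-negative bacteria, is handed by CD14 to the receptor TLR4 with its partner MD-2. Adaptors of the MyD88 branch then release NF-kappaB from its IkB inhibitors and start MAP kinase cascades, and those of the TRIF branch activate IRF3, which with NF-kappaB switches on the interferon beta gene. Within the first hour a dendritic cell transcribes an immediate early set of transcription factors, cytokines and chemokines, together with the feedback inhibitors that later end the response, while genes of the resting myeloid cell are turned down. The immunoproteasome cuts proteins into the peptides that MHC class I presents.

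The targeted genes were low in all 8 libraries. Psmb8 had 2.99, 4.64, 3.24 and 2.67 RPKM in dKO 1h LPS replicates 1 to 4, against 4.32, 3.63, 3.95 and 4.04 RPKM in dKO no LPS replicates 1 to 4; the WT libraries of the same times held 150 to 159 RPKM at 1 h and 183 to 198 RPKM without LPS. Psmb10 had 3.95, 4.57, 2.93 and 3.23 RPKM in dKO 1h LPS, against 7.69, 2.37, 6.17 and 7.59 RPKM in dKO no LPS, and 41.6 to 61.2 RPKM in the 8 WT libraries. Reads on genes covered 1.27 to 1.84 Gb per library (median 1.53 Gb), and 9269 to 10536 genes reached 1 RPKM. Genes of dendritic cells were abundant throughout: Cd74, the invariant chain of MHC class II, had 6642 to 8176 RPKM in dKO 1h LPS and 5932 to 7616 RPKM in dKO no LPS, and Itgax (CD11c) had 366 to 428 RPKM and 426 to 528 RPKM. Macrophage genes were abundant as well, with Lyz2 (lysozyme) at 11228 to 14864 RPKM in dKO 1h LPS and 14347 to 23617 RPKM in dKO no LPS.

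Libraries of both groups stood apart from their labels. Each library was correlated with the mean profile of the WT cells at each time. The library labelled dKO no LPS replicate 2 lay nearest to WT 1h LPS (Pearson r = 0.971 across genes, against 0.892 with WT no LPS), and the library labelled dKO 1h LPS replicate 2 lay nearest to WT 2h LPS (r = 0.977, against 0.942 with WT 1h LPS). The other 6 lay nearest to their own time, at 0.971 to 0.974 for dKO 1h LPS and 0.970 to 0.975 for dKO no LPS. In addition, dKO 1h LPS replicates 3 and 4 differed by little more than counting noise: their chi-square per gene was 1.15, while it was 2.47 to 13.4 in the other 33 same-group pairs without a library nearest to another time. They were therefore averaged and counted as 1 sample. Counts and list medians below are given as labelled (3 samples at 1 h, 4 without LPS) and without replicate 2 of each group (2 samples at 1 h, 3 without LPS). A log2 change of a single gene is the one without replicate 2 unless said otherwise, and the change as labelled stands beside it for the leading genes and wherever its sign turns in a gene said to have risen or fallen.

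**Figure D1:**
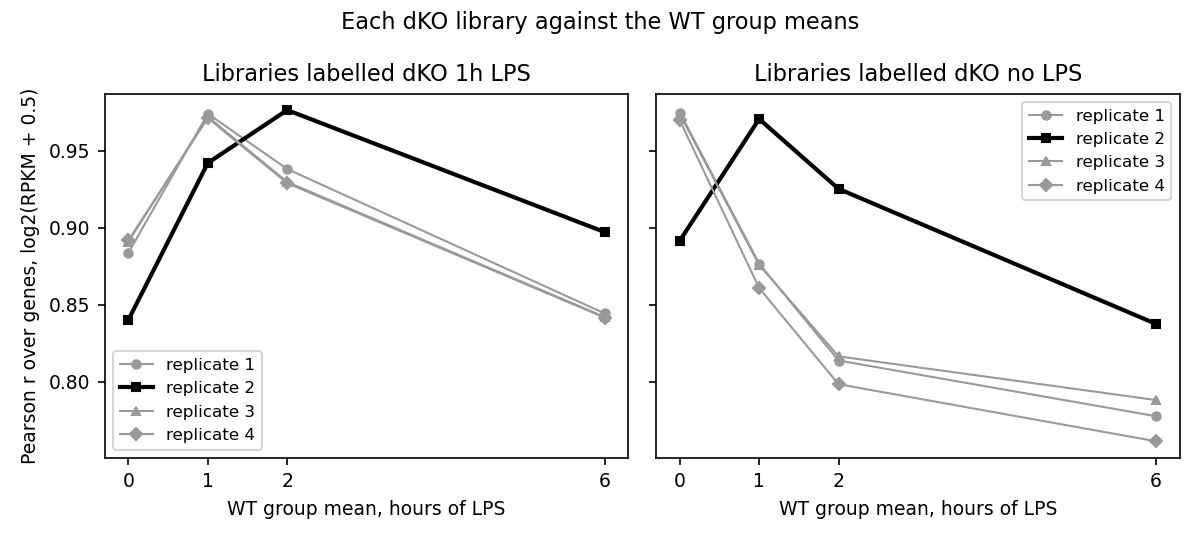
Pearson correlation across genes of each dKO library with the WT group mean at 0, 1, 2 and 6 h of LPS, for libraries labelled dKO 1h LPS (left) and dKO no LPS (right). Replicate 2 of each group (black) peaks at a later time than the other libraries of its label (grey).

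With the libraries as labelled, no gene passed the test (limma on log2(RPKM + 0.5), adjusted p below 0.05): 0 of 10102 genes were called higher (0%) and 0 lower (0%). The smallest adjusted p was 0.0743, 4901 genes had an unadjusted p below 0.05, and leaving out dKO no LPS replicate 2 alone brought 790 genes called higher and 5957 called lower. With 1h LPS replicates 3 and 4 entered as 2 samples, 393 genes were called higher and 1888 lower as labelled. In all 8 libraries, the groups did not overlap for 309 genes higher at 1 h (3.06%) and 1691 genes lower (16.7%); without replicate 2 these were 1003 (9.93%) and 7042 (69.7%).

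Without replicate 2 of each group, 911 genes were called higher (9.02% of those tested) and 6573 lower (65.1%) by limma on the deposited values. RPKM sums to about the same total in each library, and the genes that rose took a large part of that total: the 415 genes called higher by at least 2-fold held 22.3, 24.7, 20.3 and 20.2% of all RPKM in dKO 1h LPS replicates 1 to 4, against 2.95, 20.5, 3.14 and 2.62% in dKO no LPS replicates 1 to 4. Over all genes the median log2 change was -0.45. After scaling by the median of ratios the median was 0.02, with 2467 genes called higher (24.4%) and 2324 lower (23%), and quantile normalization gave 1874 higher and 3005 lower. In what follows, a gene is said to have risen or fallen where it was called without replicate 2 both on the deposited and on the scaled values. These were 911 genes that rose (9.02%) and 2324 that fell (23%), with 415 and 443 of them changed by at least 2-fold on both scales. The 911 are all the genes called higher on the deposited values, and the 2324 all those called lower on the scaled values. Rises were thus set by the deposited values alone and falls by the scaled values alone. The log2 changes printed are those of the deposited values, so that -0.45 is the median gene. As labelled, 896 of the 911 and 2320 of the 2324 had the same sign. Changes of at least 8-fold on the deposited values were found for 97 genes that rose and 10 that fell, and 36 genes rose by at least 32-fold.

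**Figure D2:**
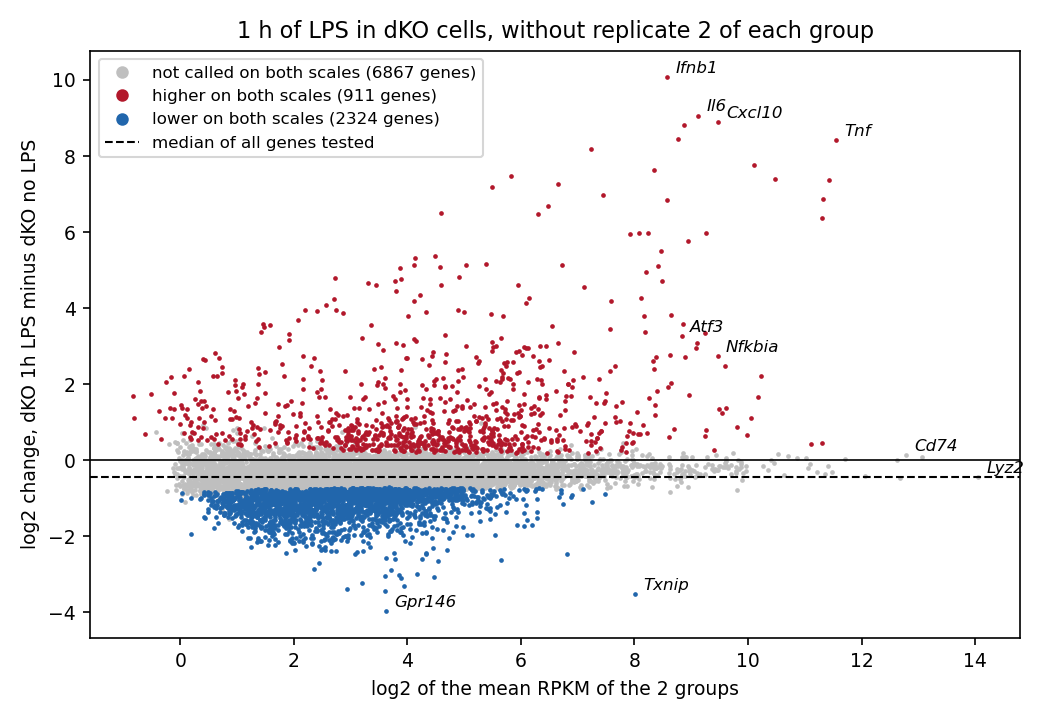
Log2 change in dKO 1h LPS against dKO no LPS without replicate 2 of each group, over the log2 mean RPKM of both groups, for 10102 genes. Red points rose and blue points fell on both scales, grey points were not called on both; the dashed line is the median of -0.45, and the largest changes are all increases.

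Among genes for sensing LPS and other microbial products, Cd14, Tlr2 and Nlrp3 were high at 1 h. Of 24 tested Toll-like receptors, LPS co-receptors and adaptors, 9 rose (37.5%) and 6 fell (25%), against 9.02 and 23% of all genes, with a median log2 change of -0.01 (-0.08 as labelled), against -0.45 (-0.44 as labelled) for all genes. Cd14, the LPS co-receptor, stood at 1171, 1105, 1031 and 1048 RPKM in dKO 1h LPS, against 112, 1028, 135 and 84.5 RPKM in dKO no LPS. Replicate 2 of the untreated group lay just below the lowest treated library, and the other 3 untreated libraries were far below all of them. Without replicate 2 the log2 change of Cd14 was 3.34 ± 0.18 (SE; limma, adjusted p = 2.96e-06). Tlr2, the receptor for bacterial lipoproteins, had 716, 447, 652 and 656 RPKM at 1 h, against 109, 633, 97.2 and 96.6 RPKM without LPS (log2 change 2.76). Tlr4 itself had a log2 change of 0.38, called without replicate 2, and of -0.10 ± 0.28 (SE) as labelled, with 52.4, 25.7, 53.6 and 51.7 RPKM at 1 h and 40.9, 59.9, 36.7 and 43.5 RPKM without LPS. Nlrp3, the inflammasome sensor that must be primed before it can act, rose by 2.35. Among the genes that fell, Tirap, the adaptor that brings MyD88 to TLR4, changed by -1.72, and Ticam2, its counterpart in the TRIF branch, by -1.43; Irak1 and Irak4, the kinases of the MyD88 complex, changed by -0.76 and -0.73.

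Genes of the NF-kappaB system rose broadly. Of 28 tested, 18 rose (64.3%) and 2 fell (7.14%), against 9.02 and 23% of all genes. Their median log2 change was 1.15 (0.81 as labelled). Nfkbiz, which encodes the nuclear coactivator IkB-zeta needed for secondary genes such as Il6, had 633, 314, 650 and 657 RPKM in dKO 1h LPS, against 2.94, 634, 3.15 and 2.19 RPKM in dKO no LPS. Its log2 change was 7.64 ± 0.13 (SE; limma, adjusted p = 7.14e-09) without replicate 2 and 5.39 ± 1.74 (adjusted p = 0.0743) as labelled. Nfkbia, which encodes the inhibitor IkB-alpha, had 1143, 1065, 1302 and 1326 RPKM at 1 h, against 181, 1300, 226 and 148 RPKM without LPS. For this gene, too, the untreated replicate 2 had a level of treated cells, and the log2 change was 2.74 ± 0.16 (limma, adjusted p = 5.42e-06) without replicate 2 and 1.97 ± 0.66 as labelled. Tnfaip3, the ubiquitin-editing enzyme A20 that shuts off the pathway, rose by 4.71, and Nfkbid, a further nuclear IkB protein, by 3.80. Of the subunit genes, Rel rose by 2.55, Nfkb2 by 1.37, Nfkb1 by 1.18, Relb by 0.68 and Rela by 0.61. The 2 members that fell were Traf2 (-0.84) and Ikbkg, the scaffold NEMO of the IkB kinase (-0.97), which had 5.13, 4.57, 5.83 and 6.31 RPKM at 1 h and 11.6, 5.96, 10.4 and 12.4 RPKM without LPS.

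Immediate early transcription factors rose in most cases but not as a block. Of 28 tested, 19 rose (67.9%) and 4 fell (14.3%), against 9.02 and 23% of all genes. Their median log2 change was 1.03 (0.60 as labelled). Atf3, an inducible brake on cytokine genes, had 841, 524, 804 and 808 RPKM in dKO 1h LPS, against 96.2, 811, 81.8 and 77.5 RPKM in dKO no LPS (log2 change 3.27). Nr4a1, an orphan nuclear receptor, changed by 5.09 ± 0.35 and Csrnp1, a nuclear factor, by 4.55 ± 0.19. Nr4a1 in the library labelled dKO 1h LPS replicate 2 was at 7.76 RPKM, below the 53.9, 40.9 and 37.8 RPKM of the other libraries of its label. The classical serum response genes were less clear. Fos had 38.7, 8.85, 50.5 and 48.2 RPKM at 1 h, against 40.3, 42.0, 17.3 and 15.5 RPKM without LPS, so the groups overlapped also without replicate 2. As labelled its log2 change was -0.01 ± 0.60. The log2 change of 0.96 ± 0.35 without replicate 2 (limma, adjusted p = 0.0346) lost the call when dKO no LPS replicate 3 or 4, dKO 1h LPS replicate 1 or the averaged pair was left out (adjusted p = 0.0786 to 0.217). Egr1 had 36.3, 7.42, 66.6 and 65.2 RPKM at 1 h and 46.9, 80.7, 23 and 13.5 RPKM without LPS and was not called (adjusted p = 0.0764). Its log2 change was 0.98 ± 0.45 without replicate 2 and -0.32 ± 0.78 as labelled. Some alternatives without replicate 2 did call Egr1 higher. These were median-of-ratios scaling, 1h LPS replicates 3 and 4 as 2 samples, replicate numbers as a block, the spread of 27 libraries, and leaving out dKO no LPS replicate 1 (limma, adjusted p = 0.00602 to 0.0339). The 4 that fell were Klf10 (-2.43), Klf4 (-2.16), Klf2 (-1.83) and Myc (-1.50). Klf2, which holds myeloid cells in a resting state, had 6.01, 5.54, 4.53 and 7.12 RPKM at 1 h, against 21.2, 6.80, 21.7 and 24.0 RPKM without LPS.

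Feedback genes acting on mRNA, cytokine receptors and MAP kinases followed. Of 19 genes for mRNA decay and SOCS feedback, 14 rose (73.7%) and 3 fell (15.8%), against 9.02 and 23% of all genes. Their median log2 change was 1.2 (0.76 as labelled). Zfp36 encodes tristetraprolin, which marks cytokine mRNAs for decay. It had 698, 138, 928 and 961 RPKM in dKO 1h LPS, against 167, 906, 125 and 90.4 RPKM in dKO no LPS. Here replicate 2 of the treated group lay within the range of untreated libraries and replicate 2 of the untreated group within that of treated ones, and the log2 change was 2.71 ± 0.23 (limma, adjusted p = 3.4e-05) without both. Socs3, the inhibitor of the IL-6 receptor, had 566, 405, 584 and 595 RPKM at 1 h, against 106, 590, 95.4 and 65.3 RPKM without LPS, while Socs1, which acts on interferon receptors, fell by 1.27. The phosphatase subunit gene Ppp1r15a, which restores translation under stress, rose by 5.10 ± 0.20, and the kinase gene Plk2 by 4.19 ± 0.14.

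Of 8 dual specificity phosphatases, which switch off MAP kinases, 5 rose (62.5%) and 1 fell (12.5%), against 9.02 and 23% of all genes. Their median log2 change was 1.63 (0.98 as labelled). Dusp1, the phosphatase of p38 and JNK, had 133, 36.5, 171 and 180 RPKM in dKO 1h LPS, against 35.4, 163, 23.1 and 17.4 RPKM in dKO no LPS (log2 change 2.63). Dusp2 and Dusp14 rose by 3.92 and 3.50 from low levels, with 9.67 to 13.4 RPKM for Dusp2 at 1 h, and Dusp16 by 1.95. Dusp6, the phosphatase of ERK, went the other way. It had 2.29, 3.28, 2.26 and 2.85 RPKM in dKO 1h LPS, against 30.5, 3.14, 29.3 and 25.1 RPKM in dKO no LPS, and its log2 change was -3.30 ± 0.11 (limma, adjusted p = 2.52e-07) without replicate 2 and -2.43 ± 0.70 (adjusted p = 0.0743) as labelled.

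Cytokine and chemokine genes held the largest changes. Of 29 tested cytokines and TNF family ligands 23 rose (79.3%) and none fell, against 9.02 and 23% of all genes. Their median log2 change was 3.79 (3.10 as labelled). Of 19 chemokines 15 rose (78.95%) and none fell, with a median of 3.81 (2.97 as labelled). The 57 genes of both lists in the tables took 12.2, 13.7, 10.9 and 10.8% of all RPKM in dKO 1h LPS replicates 1 to 4, against 2.35, 11.3, 2.51 and 2.29% in dKO no LPS replicates 1 to 4.

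Il6 encodes the cytokine that drives the acute phase response. It stood at 1292, 1513, 940 and 921 RPKM in dKO 1h LPS, against 2.04, 1124, 0.836 and 2.03 RPKM in dKO no LPS. The untreated libraries other than replicate 2 held at most 2.04 RPKM, and replicate 2 lay inside the treated range. The log2 change was 9.07 ± 0.27 (SE; limma, adjusted p = 1.5e-07) without replicate 2 and 6.94 ± 2.07 (adjusted p = 0.0743) as labelled. Tnf, the first cytokine released after LPS, had 6018, 4031, 5942 and 5959 RPKM at 1 h, against 18.5, 6060, 18.3 and 14.8 RPKM without LPS. Its log2 change was 8.41 ± 0.11 (limma, adjusted p = 2.66e-09) without replicate 2 and 6.11 ± 1.91 as labelled. Il12b, the p40 subunit shared by IL-12 and IL-23, had 933, 1889, 827 and 802 RPKM at 1 h and 3.08, 735, 0.889 and 2.55 RPKM without LPS. For Il12b the treated replicate 2 was the highest of all libraries. Il23a, the other subunit of IL-23, had 97.5 to 128 RPKM at 1 h, against 0.176, 107, 0.0764 and 0.158 RPKM without LPS. The interleukin 1 genes Il1a and Il1b rose by 7.75 ± 0.19 and 6.86 ± 0.27; Il1b had 4001 to 5602 RPKM at 1 h and 27.7 to 59.5 RPKM in the untreated libraries other than replicate 2. Tnfsf15, a TNF family ligand, and Areg, a ligand of the EGF receptor, rose by 7.27 and 7.19. The 6 tested genes of the list that were not called on both scales were Il15, Il18, Tnfsf13b, Ltb, Tgfb1 and Vegfa, with log2 changes of -0.45 (Il15) to 0.37 (Ltb).

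Among chemokines, those for neutrophils and for monocytes and T cells were high together. Cxcl1, a neutrophil attractant, had 910, 682, 961 and 959 RPKM in dKO 1h LPS, against 1.69, 968, 2.04 and 1.15 RPKM in dKO no LPS. Its log2 change was 8.81 ± 0.16 (SE; limma, adjusted p = 9.31e-09) without replicate 2 and 6.44 ± 2.00 (adjusted p = 0.0743) as labelled. Cxcl10, which attracts activated T cells, had 1561, 3607, 1260 and 1256 RPKM at 1 h, against 3.31, 1151, 1.69 and 2.54 RPKM without LPS. Here all 4 treated libraries lay above all 4 untreated ones, with a log2 change of 8.90 ± 0.21 without replicate 2 and 7.20 ± 1.97 as labelled. Cxcl2 rose by 7.39, Ccl4 by 7.37, Ccl3 by 6.37 and Ccl2, the monocyte attractant, by 5.50. Ccl4 reached 5068 to 8653 RPKM at 1 h, close to the level of Tnf. The 4 chemokines not called on both scales were Ccl6, Cxcl16, Pf4 and Ppbp, with log2 changes of -0.41 (Ccl6) to 0.30 (Cxcl16).

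**Figure D3:**
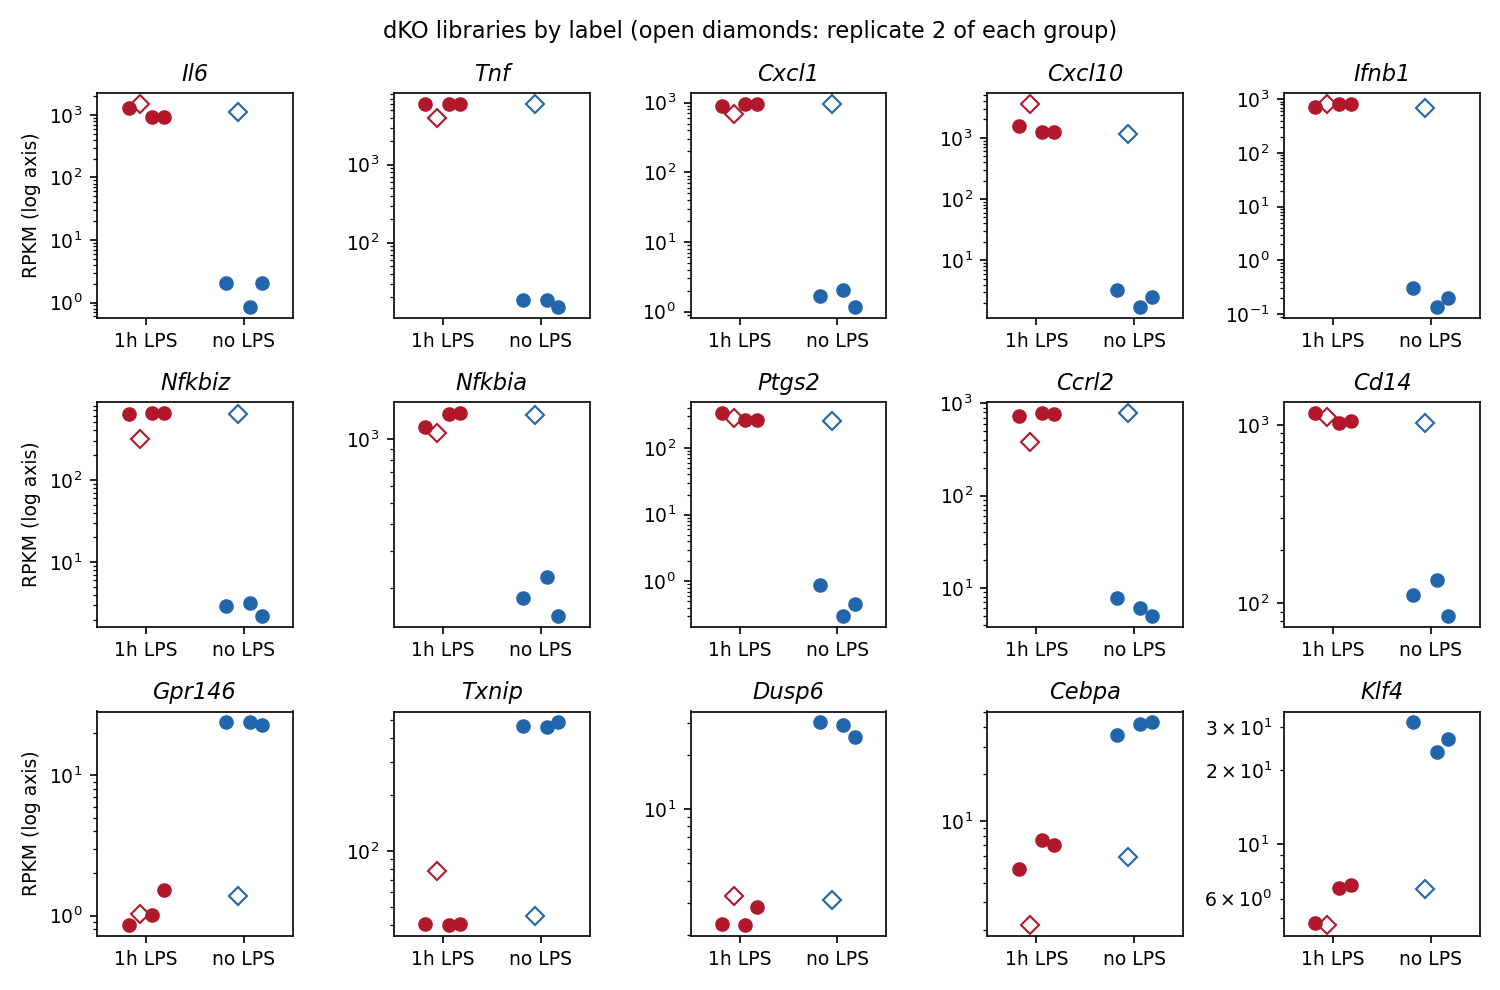
RPKM on log axes for 15 genes in the libraries labelled dKO 1h LPS (red) and dKO no LPS (blue); open diamonds are replicate 2 of each group. The untreated replicate 2 lies at the level of the treated libraries in every panel, for the 10 genes that rose and the 5 that fell.

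Promoters of some of the genes that rose most were searched for the kappaB site, the short sequence that NF-kappaB is known to bind. Whether NF-kappaB acted on these genes here was not tested. The lines below give the 250 bases before the annotated start (RefSeq, build GRCm38.p6, read 5′ to 3′ on the strand of the gene) of those 5 of the 15 genes with the highest log2 change that held a match to the kappaB motif, chosen for that match, of the feedback inhibitor Nfkbia, and of Txnip as a gene that fell. Capitals mark matches, on either strand, to the kappaB-type motif GGGANNTTCC or to the interferon-response type motif GAAANNGAAA.
Il6 (chr5:30012864-30013113, plus strand): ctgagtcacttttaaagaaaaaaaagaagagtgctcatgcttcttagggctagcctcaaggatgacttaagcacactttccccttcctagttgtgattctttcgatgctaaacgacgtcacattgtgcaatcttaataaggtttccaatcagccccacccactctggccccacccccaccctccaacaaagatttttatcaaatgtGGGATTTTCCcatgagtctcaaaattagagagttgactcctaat
Cxcl1 (chr5:90890995-90891244, plus strand): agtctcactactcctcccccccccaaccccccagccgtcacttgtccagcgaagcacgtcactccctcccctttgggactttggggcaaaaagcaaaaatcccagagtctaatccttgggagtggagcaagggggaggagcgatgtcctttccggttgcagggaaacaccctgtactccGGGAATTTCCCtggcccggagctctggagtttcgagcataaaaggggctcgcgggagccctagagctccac
Cxcl2 (chr5:90903649-90903898, plus strand): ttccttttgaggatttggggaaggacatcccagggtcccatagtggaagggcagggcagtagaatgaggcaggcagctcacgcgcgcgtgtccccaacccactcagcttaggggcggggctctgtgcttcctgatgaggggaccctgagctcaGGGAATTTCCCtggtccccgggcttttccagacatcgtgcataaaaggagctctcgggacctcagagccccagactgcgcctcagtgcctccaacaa
Ifnb1 (chr4:88522795-88523044, minus strand): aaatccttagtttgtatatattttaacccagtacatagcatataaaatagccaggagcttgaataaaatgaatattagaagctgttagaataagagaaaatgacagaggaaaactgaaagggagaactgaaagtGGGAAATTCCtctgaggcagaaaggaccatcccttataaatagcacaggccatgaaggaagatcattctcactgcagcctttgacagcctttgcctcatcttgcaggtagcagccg
Cxcl10 (chr5:92348890-92349139, minus strand): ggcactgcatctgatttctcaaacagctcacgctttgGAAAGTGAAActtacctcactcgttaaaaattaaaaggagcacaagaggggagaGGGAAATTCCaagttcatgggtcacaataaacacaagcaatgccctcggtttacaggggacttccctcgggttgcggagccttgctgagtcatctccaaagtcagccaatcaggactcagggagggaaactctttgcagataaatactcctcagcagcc
Nfkbia (chr12:55492648-55492897, minus strand): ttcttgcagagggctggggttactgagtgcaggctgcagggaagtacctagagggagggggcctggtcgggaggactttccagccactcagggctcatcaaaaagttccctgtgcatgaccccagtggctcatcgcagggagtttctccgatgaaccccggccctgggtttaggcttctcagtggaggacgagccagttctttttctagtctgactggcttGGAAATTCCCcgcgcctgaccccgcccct
Txnip (chr3:96557707-96557956, plus strand): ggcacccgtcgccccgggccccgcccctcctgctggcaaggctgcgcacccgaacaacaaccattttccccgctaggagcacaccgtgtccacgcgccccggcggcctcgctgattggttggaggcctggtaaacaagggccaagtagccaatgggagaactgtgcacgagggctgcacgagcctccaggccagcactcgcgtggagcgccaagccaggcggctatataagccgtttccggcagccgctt
The match in Il6 began 44 bases before the start, that in Ifnb1 116, that in Cxcl10 159 and that in Nfkbia 29. Cxcl1 and Cxcl2 held the same 11 letters, GGGAATTTCCC, in which the motif fits on both strands, 71 and 97 bases before the start. Cxcl10 also held the interferon-response type motif, 213 bases before the start. Txnip held neither. Of the 15 genes with the highest log2 change, 12 had a promoter in the table and 5 of these held GGGANNTTCC (41.7%); none of the 15 with the lowest did. The share was 4.25% of the 306 promoters of genes that rose by at least 2-fold, 1.29% of the 309 of genes that fell by at least 2-fold, 1.63% of the 7320 of all genes tested and 1.36% of all 27025 genes in the table. The motif GAAANNGAAA was found for 7.84% of the genes that rose by at least 2-fold, 2.91% of those that fell and 3.54% of those tested, and the AP-1 type motif TGANTCA for 12.7, 3.88 and 5.41%. These shares are counts of letters in a fixed window, without a test.

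Interferon beta was the gene with the highest log2 change of all. Ifnb1 had 714, 799, 826 and 798 RPKM in dKO 1h LPS, against 0.313, 692, 0.133 and 0.197 RPKM in dKO no LPS. All 4 treated libraries lay above all untreated ones, replicate 2 included. The log2 change was 10.07 ± 0.13 (SE; limma, adjusted p = 2.66e-09) without replicate 2 and 7.61 ± 2.24 (adjusted p = 0.0743) as labelled. Of 34 tested interferons and interferon-stimulated genes 18 rose (52.9%) and 1 fell (2.94%), against 9.02 and 23% of all genes. Their median log2 change was 0.58 (1.47 as labelled). Members of the list differed, and those named next are examples chosen from it. Whether IRF3 or the interferon receptor acted on them here was not tested. Rsad2 (viperin), Ifit1, Isg15 and Ifit2, antiviral genes that IRF3 can switch on without interferon, rose by 6.97, 6.48, 5.98 and 4.81. Stat2, Irf9, Usp18 and Oas3, which depend on signalling by the interferon receptor, were not called, with log2 changes of -0.64 (Oas3) to -0.15 (Irf9), and Oas2 had a log2 change of -0.99, called without replicate 2, and of 0.24 ± 0.70 (SE; limma, adjusted p = 0.778) as labelled. For Rsad2, Isg15 and Oas2 the treated replicate 2 lay above the other treated libraries. Rsad2 had 381, 2100, 319 and 311 RPKM at 1 h, against 2.89, 232, 1.84 and 2.17 RPKM without LPS, and Oas2 had 0.754, 9.43, 1.02 and 0.629 RPKM, against 2.49, 0.766, 2.48 and 1.39 RPKM. Of 12 interferon regulatory factors and STATs, 5 rose (41.7%) and 1 fell (8.33%). Irf1, which activates interferon-gamma target genes, had 75.6, 207, 57.4 and 55.7 RPKM at 1 h and 16.6, 43.7, 19.9 and 16.6 RPKM without LPS (log2 change 1.86).

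Surface molecules for contact with T cells rose as well. Of 21 tested costimulation and maturation genes 15 rose (71.4%) and none fell, against 9.02 and 23% of all genes. Their median log2 change was 1.40 (1.03 as labelled). Cd40, the receptor for T cell help, had 31.9, 86.9, 31.1 and 31.5 RPKM in dKO 1h LPS, against 3.52, 25.0, 3.90 and 2.02 RPKM in dKO no LPS, so that all treated libraries lay above all untreated ones. Without replicate 2 its log2 change was 3.18 ± 0.21 (SE; limma, adjusted p = 1.01e-05). Icam1, an adhesion ligand of T cells, rose by 2.40, Cd80, a ligand of CD28, by 1.49, Cd274 (PD-L1) by 1.43 and Cd86, the other ligand of CD28, by 0.90. Ccr7, the receptor that takes dendritic cells to lymph nodes, had 308, 227, 336 and 342 RPKM at 1 h, against 102, 274, 172 and 77.8 RPKM without LPS (log2 change 1.54).

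Of 14 tested chemoattractant receptors, 6 rose (42.9%, against 9.02% of all genes). Ccrl2, a receptor that binds chemerin without signalling, had 737, 384, 787 and 776 RPKM in dKO 1h LPS, against 7.85, 792, 6.02 and 4.91 RPKM in dKO no LPS, and a log2 change of 6.83 ± 0.16 (SE; limma, adjusted p = 3.24e-08). C5ar1, the receptor of complement C5a, rose by 2.95. A fall was called for 3 (21.4%, against 23% of all genes): Cxcr4, the receptor of CXCL12 that keeps cells in the marrow (-1.75), P2ry6, a receptor of UDP (-1.74), and Ccr2, the receptor of CCL2 (-1.10). Cxcr4 had 8.14 to 10.9 RPKM at 1 h, against 40.6, 12, 33.2 and 27.4 RPKM without LPS.

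Inducible enzymes were few but large in their change. Of 22 prostaglandin, nitric oxide, itaconate and redox genes, 8 rose (36.4%) and 3 fell (13.6%), against 9.02 and 23% of all genes. Ptgs2 encodes cyclooxygenase-2, the inducible step of prostaglandin synthesis. It had 336, 275, 265 and 264 RPKM in dKO 1h LPS, against 0.882, 254, 0.298 and 0.456 RPKM in dKO no LPS, so that the groups did not overlap even as labelled. The log2 change was 8.20 ± 0.22 (SE; limma, adjusted p = 6.47e-08) without replicate 2 and 6.17 ± 1.81 (adjusted p = 0.0743) as labelled. Irg1, which makes itaconate, had 1053 to 1908 RPKM at 1 h, against 17.4, 1135, 22 and 16.3 RPKM without LPS (log2 change 5.98), and Sod2, the mitochondrial superoxide dismutase, rose by 1.47. Nos2, the inducible nitric oxide synthase, had a log2 change of 0.45 and was not called on both scales. The 3 that fell, Nqo1 (-1.12), Gclc (-1.06) and Gclm (-0.75), are known targets of the redox factor NRF2, while Slc7a11 and Txnrd1, which are known NRF2 targets too, rose by 1.88 and 1.42.

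Genes of sterol and sugar metabolism changed singly. Of 22 cholesterol genes, 4 rose (18.2%) and 6 fell (27.3%), against 9.02 and 23% of all genes. Ch25h, whose product is the antiviral oxysterol 25-hydroxycholesterol, had 117, 137, 120 and 124 RPKM in dKO 1h LPS, against 4.85, 158, 4.29 and 4.26 RPKM in dKO no LPS (log2 change 4.60). The cholesterol exporter Abcg1 fell by 1.98 and the synthesis genes Lss and Mvd by 1.41 and 1.26. Of 23 glycolysis and HIF-1 genes, 4 rose (17.4%) and 2 fell (8.7%). Adm, the vasodilator adrenomedullin, rose by 3.90 and Hif1a by 0.78, whereas Pfkfb3 and Pfkfb4, which set the pace of glycolysis, fell by 1.39 and 1.28. Among 23 apoptosis and survival genes, 9 rose (39.1%) and 3 fell (13%). Cflar, an inhibitor of caspase-8, rose by 2.85 and Pmaip1, a promoter of cell death, by 2.55; Bid, which links death receptors to mitochondria, fell by 2.46 and Casp9 by 1.8. Of 34 cell cycle genes, 3 rose (8.82%) and 5 fell (14.7%), against 9.02 and 23% of all genes, among them Cdkn1a, the inhibitor p21, which rose by 1.83, and Ccne1, which fell by 1.6.

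The genes with the lowest log2 change were a thioredoxin-binding protein, receptors coupled to G proteins and transcription factors. Txnip, the thioredoxin-binding protein, which also limits glucose uptake, had 40.8, 77.9, 39.9 and 40.8 RPKM in dKO 1h LPS, against 463, 45.0, 461 and 491 RPKM in dKO no LPS. Its level without LPS, leaving out replicate 2, was 11.6 times that at 1 h, and the log2 change was -3.52 ± 0.08 (SE; limma, adjusted p = 2.19e-08) without replicate 2 and -2.37 ± 0.79 (adjusted p = 0.0743) as labelled. Gpr146, an orphan receptor with the lowest log2 change of the named genes, had 0.849, 1.02, 1.01 and 1.52 RPKM at 1 h, against 23.9, 1.37, 24.2 and 22.8 RPKM without LPS, with a log2 change of -3.97 ± 0.13 (limma, adjusted p = 2.09e-07) without replicate 2 and -3.05 ± 0.85 as labelled. S1pr2 (a receptor of sphingosine 1-phosphate) changed by -3.39, Cnr2 (the cannabinoid receptor of immune cells) by -3.23, Lpar6 (a receptor of lysophosphatidic acid) by -3.09 and Adra2a (an alpha-2 adrenergic receptor) by -3.08. For these 4, the untreated replicate 2 had 1.19 to 4.01 RPKM, while the other untreated libraries had 13.1 to 44.6 RPKM.

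The list of resting myeloid genes as a whole stayed near the background. Of 43 resting myeloid receptors and transcription factors, 11 fell (25.6%, against 23% of all genes) and 8 rose (18.6%, against 9.02%), with a median log2 change of -0.37 (-0.41 as labelled), close to the median of all genes. Single transcription factors had large changes. Cebpa, a factor that sets up granulocyte and macrophage fate, had 4.94, 2.13, 7.50 and 6.99 RPKM in dKO 1h LPS, against 35.6, 5.89, 42.2 and 43.5 RPKM in dKO no LPS. Its log2 change was -2.65 ± 0.16 (SE; limma, adjusted p = 5.09e-06) without replicate 2. Hhex, a homeobox factor, changed by -2.85 and Tsc22d3 (GILZ, induced by glucocorticoids) by -2.99. The remaining genes among the 15 lowest were Dusp6, described above, Arrdc3 (-3.04, an arrestin related to Txnip), B3gnt7 (-3.03, a glycosyltransferase), Cd300lb (-2.90, a paired immune receptor), Tifab (-2.63) and Vhl (-2.61, the subunit that marks HIF-1 alpha for decay). Vhl had 4.94, 7.25, 5.04 and 5.14 RPKM at 1 h, against 33.4, 5.76, 35.7 and 30.6 RPKM without LPS.

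Genes of MHC class I presentation, the respiratory chain and the lysosome moved with the median gene, so their calls depended on the scale. On the deposited values 9 of 16 MHC class I genes, 26 of 30 respiratory chain genes and 19 of 24 lysosome genes were called lower and none higher, against 65.1% lower of all genes; on the scaled values 4, 7 and 4 of them were called higher and none lower, against 24.4% higher of all genes. None was called in the same direction on both scales, and their median log2 changes of -0.32, -0.40 and -0.37 were near the median of all genes. The 13 MHC class II genes lay above the median gene, with a median log2 change of -0.14 (-0.08 as labelled), against -0.45 for all genes. On the deposited values 5 of them were called lower and none higher. On the scaled values 7 were called higher and 1 lower. Only March1, the ligase that removes class II from the surface, was called in the same direction on both scales (-0.80). H2-Ab1, an MHC class II chain, had 1869, 2070, 2304 and 2389 RPKM in dKO 1h LPS and 1888, 1787, 2566 and 1649 RPKM in dKO no LPS, with overlapping groups. Of 10 proteasome genes, Psmb6 rose by 0.19 and Psmb10, one of the targeted genes, fell by 0.93 ± 0.14; its groups overlapped as labelled, where the log2 change was -0.47 ± 0.38.

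**Figure D4:**
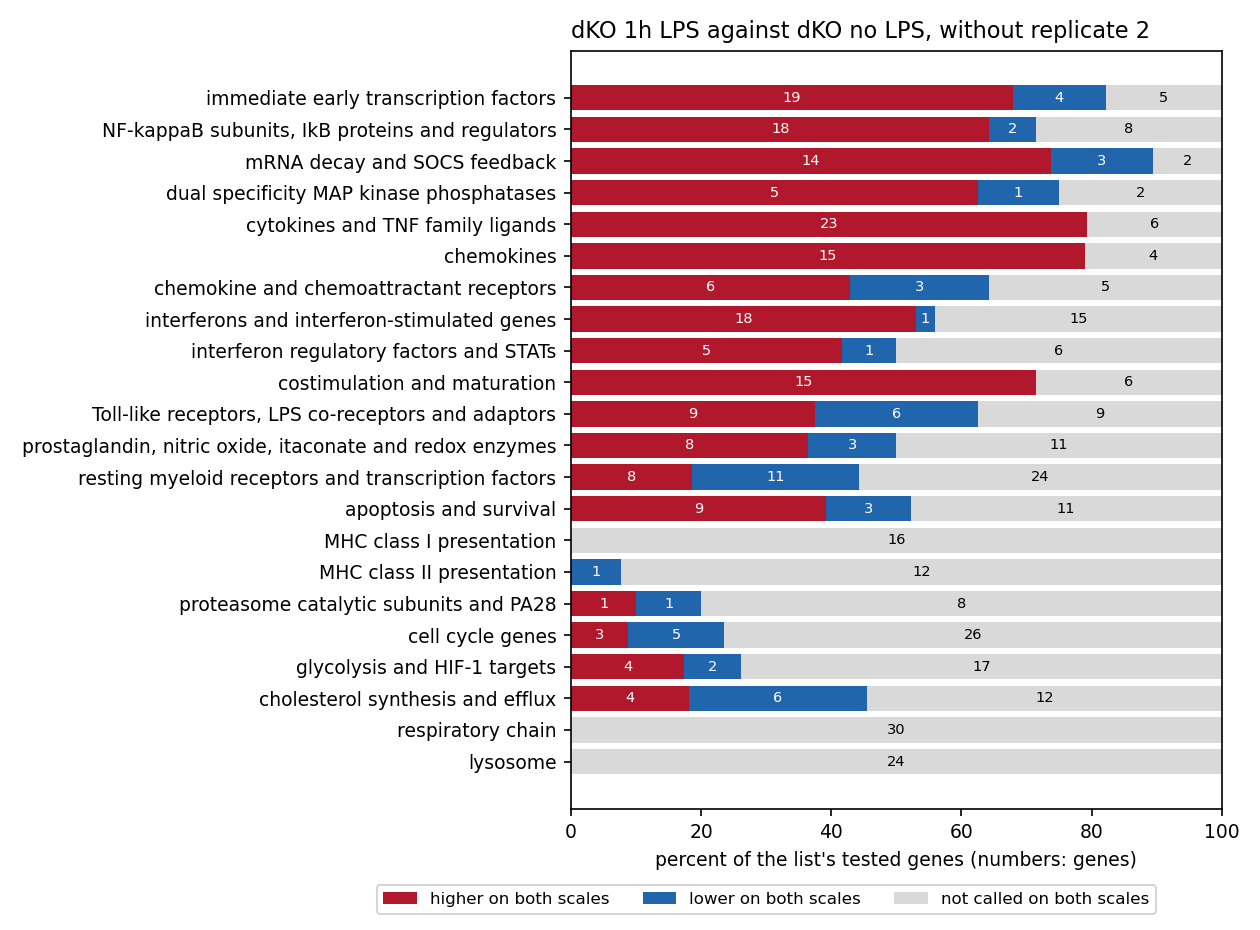
Share of the tested genes of 22 lists that rose (red), fell (blue) or were not called on both scales (grey) in dKO 1h LPS against dKO no LPS without replicate 2; the numbers in the bars are genes. Cytokines and chemokines have the largest red shares and no blue, and MHC class I, respiratory chain and lysosome lists have neither.

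Markers of other cells were summed to see what moved with the treatment. Macrophage and monocyte markers (13 genes) summed to 13280 to 17140 RPKM in dKO 1h LPS and 16510 to 25450 RPKM in dKO no LPS, and dendritic cell markers (12 genes) to 9538 to 11650 and 8417 to 11120 RPKM. Lyz2 alone made up most of the first sum and Cd74 most of the second. Of 13 tested macrophage and monocyte markers, 1 rose (7.69%) and 2 fell (15.4%), against 9.02 and 23% of all genes. Of 11 tested dendritic cell markers, 3 rose (27.3%) and none fell. Granulocyte markers (12 genes) summed to 488.6 to 556.4 RPKM at 1 h and 360.6 to 508.9 RPKM without LPS. Of the 9 tested, Ltf, Camp, Ngp, S100a8 and S100a9 rose (55.6%, against 9.02% of all genes), by 0.61 (Camp) to 0.94 (Ltf). Eosinophil, mast cell and basophil markers (13 genes) summed to 729.0 to 851.1 RPKM and 670.1 to 851.4 RPKM. Here 4 of the 8 tested rose (50%), by 0.56 (Ear1) to 0.88 (Gata2). Markers of T, B and NK cells (11 genes) summed to 1.29 to 2.02 RPKM and 1.27 to 2.04 RPKM, with 4 or 5 of them at 0 in each treated library and 5 or 6 in each untreated one, and none was tested. The part of these cells in the results was not tested, and in such bulk libraries more cells of a type cannot be told apart from more RNA per cell.

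The response of dKO cells was then set beside that of WT cells over the same hour. Without replicate 2 of both dKO groups, the difference between the responses (dKO minus WT) was called for 68 genes higher in dKO (0.673% of 10102) and 84 lower (0.832%, limma). The filter took the 8 dKO libraries only, so a gene expressed in WT but below 1 RPKM in most dKO libraries was not tested. With no filter, 49 genes were called higher and 74 lower. As labelled, 1 gene was called in each direction, with 338 at an unadjusted p below 0.05. Without dKO 1h LPS replicate 1 the counts were 18 and 31, and without the averaged pair 44 genes were higher. The interferon list held 10 of the higher calls among its 34 genes and none of the lower ones: Rsad2, Ifit1, Isg15, Ifit2, Cmpk2, Mx2, Ifih1, Gbp5, Irf7 and Stat2. Without dKO 1h LPS replicate 1, 4 of these 10 were still called. Isg15, a ubiquitin-like protein, had 527, 1247, 537 and 540 RPKM in dKO 1h LPS and 9.07, 432, 7.80 and 7.03 RPKM in dKO no LPS, while WT libraries had 503, 415, 492 and 441 RPKM at 1 h and 22.7, 27.8, 23.3 and 28.9 RPKM without LPS. The levels at 1 h were thus closer to each other than those without LPS, which were lower in 3 dKO libraries than in any WT library. The difference in log2 change was 1.83 ± 0.15 for Isg15 (limma, adjusted p = 2.4e-05), 1.97 ± 0.17 for Ifit1 and 2.09 ± 0.25 for Rsad2; as labelled it was 0.82 ± 1.38, 1.21 ± 1.48 and 1.36 ± 1.63 for these genes.

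Single genes differed in other ways. Of the 20 named genes with a called difference, 13 had the same sign as labelled, where Mul1 (-1.37) and Ppp1r3b (2.28) were the 2 calls. Cxcl10 had a larger log2 change in dKO cells by 1.29 ± 0.21, and Tnf by 0.63 ± 0.14 (limma, adjusted p = 0.0079 and 0.036). Outside replicate 2, Cxcl10 had 1256 to 1561 RPKM in dKO and 1062 to 1322 RPKM in WT at 1 h. Without LPS it had 1.69 to 3.31 and 4.95 to 5.70 RPKM. Tnf had 5942 to 6018 and 4726 to 5184 RPKM at 1 h, against 14.8 to 18.5 and 20.0 to 25.8 RPKM without LPS. The lower untreated levels in dKO thus entered both differences. As labelled the differences were -0.41 ± 2.07 for Cxcl10 and -1.67 ± 2.00 for Tnf. Neither call held without dKO 1h LPS replicate 1. That of Tnf was also lost without dKO no LPS replicate 4 or the averaged pair, with no filter and with quantile normalization. Under quantile normalization the difference of Tnf was 0.32 (limma, adjusted p = 0.431). Dusp2 had 10.3, 13.4, 9.67 and 11.4 RPKM in dKO 1h LPS, against 29.4, 26.9, 30.4 and 28.3 RPKM in WT 1h LPS, with 0.065 to 0.444 RPKM in both genotypes without LPS outside the dKO replicate 2; its difference was -1.52 ± 0.24 and was not called with a pseudocount of 0.1 (limma, adjusted p = 0.138). Mul1, a mitochondrial ubiquitin ligase, had 3.30 to 3.70 RPKM in dKO 1h LPS and 11.7 to 12.3 RPKM in WT 1h LPS, against 4.06 to 6.61 and 6.61 to 7 RPKM without LPS, a difference of -1.49 ± 0.11. Gdf15, a stress cytokine, was at 6.34 to 8.94 RPKM in dKO 1h LPS and 62.8 to 93.0 RPKM in WT 1h LPS. It was already lower in dKO without LPS, at 1.24 to 1.95 RPKM outside replicate 2, against 6.18 to 9.85 RPKM in WT. Its difference in response of -1.31 was not called without dKO no LPS replicate 1 or dKO 1h LPS replicate 1. The call was also lost with a pseudocount of 0.1, with quantile normalization or with no filter. A4galt, a glycosyltransferase, and Cldn1, a tight junction protein, had differences of -1.93 and -1.24. A4galt was at 0 to 0.233 RPKM in the WT libraries of both times, so a fall could hardly show there. In dKO it had 0.523 to 1.29 RPKM at 1 h and 6.35 to 6.80 RPKM without LPS outside replicate 2. Cldn1 had 1.92 to 4.23 RPKM in dKO 1h LPS and 31.6 to 40.1 RPKM in WT 1h LPS. Without LPS it had 3.48 to 5.87 RPKM in dKO and 18.1 to 28.6 RPKM in WT. The difference of A4galt was not called with a pseudocount of 0.1 (limma, adjusted p = 0.109). That of Cldn1 was not called without dKO no LPS replicate 1 or 3 or the averaged pair, with quantile normalization or with no filter. At the other end, Ppp1r3b, a subunit that promotes glycogen synthesis, had 8.26, 5.07, 9.55 and 9.66 RPKM in dKO 1h LPS and 1.16 to 1.98 RPKM in WT 1h LPS, with similar levels without LPS outside replicate 2 (13.3 to 21.5 and 16.1 to 19.1 RPKM), a difference of 2.37 ± 0.23 (limma, adjusted p = 0.00012). Id3, an inhibitor of helix-loop-helix factors, had a difference of 2.27 ± 0.45, with 3.97 to 9.87 RPKM in dKO 1h LPS and 0.563 to 1.94 RPKM in WT 1h LPS. The difference of Id3 was not called without dKO 1h LPS replicate 1 or the averaged pair, with a pseudocount of 0.1 or with no filter.

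**Figure D5:**
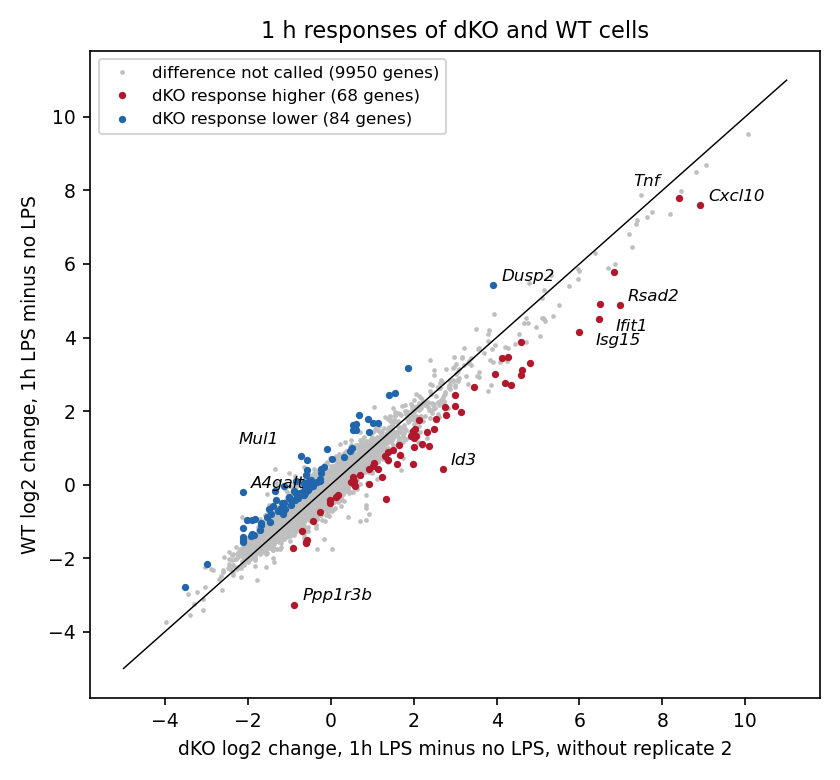
Log2 change over the first hour of LPS in dKO cells without replicate 2 (horizontal) and in WT cells (vertical) for 10102 genes, with the line of equal change. Red and blue mark the 68 and 84 genes with a called difference; Rsad2, Ifit1 and Isg15 lie below the line and Dusp2 above it.

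The later times show how long the 1 h levels lasted. Of the 8 later dKO libraries, 3 also lay nearest to another WT time than their label (2h replicates 2 and 4 and 6h replicate 4), so the values of the others are given as a description. Tnf was at 5942 to 6018 RPKM at 1 h (without replicate 2), 3917 and 3386 RPKM at 2 h and 691 to 824 RPKM at 6 h. Cxcl1 stood at 910 to 961 RPKM at 1 h, 547 and 570 RPKM at 2 h and 101 to 112 RPKM at 6 h. Both had thus passed their highest level among these times by 2 h. Zfp36 was at 698 to 961 RPKM at 1 h, 193 and 117 RPKM at 2 h and 91.4 to 101 RPKM at 6 h, near the untreated level. Il12b went on to 1712 and 2293 RPKM at 2 h and 2722 to 3836 RPKM at 6 h, after 802 to 933 RPKM at 1 h, and Rsad2 to 2261 and 2651 RPKM at 2 h after 311 to 381 RPKM at 1 h. Ifnb1 was at 714 to 826 RPKM at 1 h, 912 and 935 RPKM at 2 h and 19.7 to 29.8 RPKM at 6 h. Of the genes that fell, Txnip was at 39.9 to 40.8 RPKM at 1 h, 73.4 and 73.5 RPKM at 2 h and 107 to 141 RPKM at 6 h, whereas Cebpa was at 4.94 to 7.50, 1.84 and 2.21, and 0.666 to 1.00 RPKM at those times.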

How the data were processed

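RNA of 8 dKO libraries was compared, with 8 WT libraries beside them. Libraries were made with the TruSeq RNA kit from total RNA, per the labels' protocols, and, per the submitters' processing notes, CASAVA 1.8.2 was used with mm9; aligner settings, annotation, strand and the handling of reads shared by paralogs are not given in the sources used here, so close paralogs and antisense partners are uncertain. The deposited tables hold, for 22308 entries (22216 genes and 92 spike-in controls), RPKM values that the authors normalized to gene length and library size. They also hold a deposited signal in whole numbers, read from the values as aligned bases (200 per fragment taken) and used only for depth and for the noise check between libraries; read counts were not used here, so no counting interval is given.

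Groups came from the labels. Values were log2(RPKM + 0.5) of 10102 genes with at least 1 RPKM in at least 4 of the 8 libraries, so fold changes of low genes are understated. They were fitted with limma 3.58.1 (R 4.3.3; empirical Bayes with intensity trend, two-sided, Benjamini-Hochberg over all genes, threshold 0.05). dKO 1h LPS replicates 3 and 4 were averaged as 1 sample, a departure from the planned fit made after their near identity was seen; residual degrees of freedom were 5 as labelled and 3 without replicate 2. Replicate numbers were checked for pairing: deviations of same-numbered libraries correlated at 0.186, 0.031 and 0.052, so they were not used as pairs. Motifs were searched on both strands of RefSeq promoters (GRCm38.p6); positions of mm9 and GRCm38.p6 were not mixed.

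Named genes were Psmb8 and Psmb10, the 15 highest and 15 lowest called changes, up to 6 genes per list by smallest adjusted p with any member a statement needs, and the 5 highest and lowest called differences from WT; uncharacterised loci were passed over, and the part of the rule for genes called also as labelled took 0 genes. Members, lists and tests were chosen with earlier results of these data known.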

Additional observations from a re-analysis of the deposited data

Results flagged for a closer look

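Of the 95 genes looked at, 63 had the library labelled dKO no LPS replicate 2 far from the other 3 untreated libraries, with a gap to the nearest library above Dixon's critical share of the range of the 4. These genes were named mostly for their change without replicate 2, so their count is a description; over all 10102 tested genes this library stood apart for 16.9%, against 0.218 to 0.465% for each of the other 3. Among the cytokine and growth factor genes, it had 1124 RPKM of Il6, 6060 RPKM of Tnf, 735 RPKM of Il12b, 2267 RPKM of Il1a, 4987 RPKM of Il1b, 107 RPKM of Il23a, 156 RPKM of Tnfsf15, 81.1 RPKM of Areg, 10.1 RPKM of Gdf15 and 41.4 RPKM of Adm. Among the chemokine genes, it had 968 RPKM of Cxcl1, 2844 RPKM of Cxcl2, 1151 RPKM of Cxcl10, 472 RPKM of Ccl2, 4704 RPKM of Ccl3 and 5076 RPKM of Ccl4. Among interferon beta and antiviral genes, it had 692 RPKM of Ifnb1, 232 RPKM of Rsad2, 104 RPKM of Ifit1, 35.2 RPKM of Ifit2, 432 RPKM of Isg15, 43.75 RPKM of Irf1 and 158 RPKM of Ch25h. Among the NF-kappaB and immediate early genes, it had 634 RPKM of Nfkbiz, 1300 RPKM of Nfkbia, 88.6 RPKM of Nfkbid, 738 RPKM of Tnfaip3, 811 RPKM of Atf3, 278 RPKM of Csrnp1, 38.9 RPKM of Nr4a1 and 11.1 RPKM of Id3. Among the feedback genes, it had 679 RPKM of Ppp1r15a, 379 RPKM of Plk2, 906 RPKM of Zfp36, 590 RPKM of Socs3, 163 RPKM of Dusp1, 10.1 RPKM of Dusp2, 3.53 RPKM of Dusp14, 41 RPKM of Dusp16 and 493 RPKM of Cdkn1a. Among receptor, surface and enzyme genes, it had 1028 RPKM of Cd14, 633 RPKM of Tlr2, 165 RPKM of Nlrp3, 792 RPKM of Ccrl2, 96.8 RPKM of C5ar1, 25.1 RPKM of Cd40, 490 RPKM of Icam1, 254 RPKM of Ptgs2 and 1135 RPKM of Irg1. Among the survival genes, it had 105 RPKM of Cflar and 53.7 RPKM of Pmaip1. Among genes that fell at 1 h, it had 1.37 RPKM of Gpr146, 45 RPKM of Txnip, 2.02 RPKM of Cnr2, 2.97 RPKM of Lpar6, 0.89 RPKM of Hhex, 6.8 RPKM of Klf2, 1.36 RPKM of Tirap, 2.8 RPKM of Bid, 5.23 RPKM of Casp9, 23.3 RPKM of Abcg1 and 1.36 RPKM of A4galt. Itgax was at 426 RPKM there. Chance flags about 1 in 20 groups of 4 values, a rate that does not apply to genes named for their change. This library lay nearest to WT 1h LPS, as given above; whether its label, its culture or its handling lies behind this was not tested.

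In WT groups, Mul1 in WT no LPS replicate 4 (6.61 RPKM), Gdf15 in WT 1h LPS replicate 2 (93.0 RPKM) and Id3 in WT no LPS replicate 1 (0.305 RPKM) stood apart in the same way.

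The log2 change over the first hour differed between dKO and WT cells (limma on the difference, dKO minus WT, called without replicate 2 of both dKO groups). It was higher in dKO for Ppp1r3b (2.37), Id3 (2.27), Rsad2 (2.09), Ifit1 (1.97), Isg15 (1.83), Ifit2 (1.5), Cxcl10 (1.29), Ccrl2 (1.04), Pmaip1 (0.75), Ch25h (0.72), Tlr2 (0.64) and Tnf (0.63). It was lower for A4galt (-1.93), Dusp2 (-1.52), Mul1 (-1.49), Gdf15 (-1.31), Cldn1 (-1.24), Klf2 (-0.90), Tsc22d3 (-0.82) and Txnip (-0.75). A higher log2 change is not a higher level at 1 h. Ifit2 averaged 58.7 RPKM in dKO (without replicate 2) and 61.5 RPKM in WT at 1 h, against 1.62 and 5.62 RPKM without LPS. Ifit1 averaged 156 and 122 RPKM at 1 h, against 1.26 and 4.86 RPKM without LPS. As labelled, 7 of these 20 had the opposite sign: Tnf (-1.67), Ccrl2 (-1.01), Ch25h (-0.46), Cxcl10 (-0.41), Tlr2 (-0.23), Pmaip1 (-0.09) and Txnip (0.41). Without dKO 1h LPS replicate 1 the calls of Cxcl10, Tnf, Ifit2, Tlr2, Ccrl2, Pmaip1, Ch25h, Id3, Gdf15 and Tsc22d3 were lost, and those of Ccrl2, Ch25h and Tsc22d3 were lost under 7, 8 and 8 alternatives in all.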

How the results depend on the processing

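As labelled, the counts of 0 genes higher and 0 lower became 1 higher with no filter on low values, 393 and 1888 with dKO 1h LPS replicates 3 and 4 as 2 samples (chosen after seeing the data), and 612 and 4335 with the spread of all 32 libraries; leaving out single libraries gave 0 to 790 higher and 0 to 5957 lower, the highest without dKO no LPS replicate 2. Without replicate 2 of each group, 911 higher and 6573 lower became 2467 and 2324 with median-of-ratios scaling, 1874 and 3005 with quantile normalization, and 4346 lower at a minimum of 5 RPKM; leaving out single libraries gave 699 to 954 and 5322 to 6586. There the lone 1 h sample is assumed to vary like the others. The difference between dKO and WT responses, 1 higher and 1 lower as labelled, became 3 and 7 with no filter, 2 lower with quantile normalization and 0 lower at a minimum of 5 RPKM, and 0 to 9 and 0 to 24 without single libraries. Without replicate 2 of both dKO groups, 68 higher and 84 lower became 48 lower with quantile normalization, and 18 to 70 and 31 to 90 without single libraries, the lowest without dKO 1h LPS replicate 1 (44 higher without the averaged pair). The causes of these shifts were not tested.

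With the replicate numbers as a block, which the pairing check did not bear out, 622 genes were called higher and 5372 lower as labelled, 965 and 6809 without replicate 2, and 2 and 2 for the difference as labelled.

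For the named genes, 166 of 214 values of the change as labelled and 1360 of 1375 without replicate 2 kept their direction and side of the threshold, and none of these reversed. The exceptions without replicate 2 were Psmb10, Fos, Egr1, Mul1 and Ppp1r3b. For the differences from WT, 248 of 296 did and 48 lost the call. Depth of 1.27 Gb or more per library limits only genes near 1 RPKM, which the filter left out in part.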

Other observations

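Loci of microRNAs that act in the LPS response were among the genes that rose; they were chosen after their values were seen. The table counts RNA over the hairpin, so the values stand for the primary transcript and not for the mature microRNA. Mir155, which restrains SOCS1 and other inhibitors, had 33.3, 51.3, 34.5 and 32.3 RPKM in dKO 1h LPS, against 2.02, 32.9, 0.846 and 1.36 RPKM in dKO no LPS, and a log2 change of 4.19 without replicate 2. Mir221 and Mir222 lie next to each other on chromosome X. Mir221 had 30.5, 30.9, 37.0 and 41.8 RPKM at 1 h, against 0.375, 50.4, 0.650 and 0.184 RPKM without LPS, and Mir222 had 7.72 to 9.05 RPKM at 1 h, against 0, 11.1, 0 and 0.706 RPKM without LPS. For all 3 loci the untreated libraries other than replicate 2 lay below every treated library. The mature sequences (RefSeq, GRCm38.p6) have the seed, bases 2 to 8, in capitals; miR-221-3p and miR-222-3p share theirs.
mmu-miR-155-5p (chr16:84714143-84714165, plus strand): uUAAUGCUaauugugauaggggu
mmu-miR-221-3p (chrX:19146307-19146329, minus strand): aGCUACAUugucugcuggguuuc
mmu-miR-222-3p (chrX:19146901-19146923, minus strand): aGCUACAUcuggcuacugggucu

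The spike-in controls of the ERCC set took 0.113, 0.113, 0.107 and 0.115% of the signal in dKO 1h LPS replicates 1 to 4 and 0.125, 0.127, 0.126 and 0.105% in dKO no LPS replicates 1 to 4, so the groups overlapped. A total of 144 genes were called lower on the deposited values and higher after scaling, and no direction is given for them.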
